A study of Mus musculus with 4 samples.

Results

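The RNAs described here are those made from the mouse mitochondrial chromosome: the rRNAs mt-Rnr1 and mt-Rnr2, the mRNAs mt-Nd1, mt-Nd2, mt-Co1, mt-Co2, mt-Atp6, mt-Co3, mt-Nd4 and mt-Cytb, and the tRNAs between them. All peaks on the mitochondrial chromosome were taken from both peak lists and assigned by midpoint and strand to the mitochondrial gene map. These were 63 of 50983 SRSF1 peaks and 79 of 56336 SRSF2 peaks, together 142 of 107319. Of the 10 rRNAs and mRNAs just named, 6 had a listed peak and 4 (mt-Nd1, mt-Co2, mt-Atp6 and mt-Co3) had none.

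The lists came from CLIP-seq, in which proteins are crosslinked to RNA by ultraviolet light, precipitated, and the bound RNA fragments sequenced. Mouse embryonic fibroblasts (MEFs) of a tet-repressible SRSF1 line and of a tet-repressible SRSF2 line were grown without tetracycline, and an anti-HA antibody was used for both. Each protein was measured in its own cell line in 1 library, so protein and line cannot be told apart, and no value below has a replicate error. The labels do not say whether either line is a single clone. The remaining 2 SRSF1 samples of the series, treated with control or SRSF2-directed siRNA, were not analysed here. Of the fibroblast genes looked up by name, the collagen gene Col1a1 had 55 SRSF1 and 52 SRSF2 peaks, while Fn1, Vim, Thy1 and Pdgfrb had 0 under their RefSeq names. The same held for Ptprc, Pecam1, Epcam and Alb, markers of other cell types. Most host units carry no gene name, so these 0 values do not show absence.

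Mitochondrial RNA is transcribed from both strands as long precursors. tRNAs sit between most of the rRNAs and mRNAs, and their excision frees the RNAs on either side, a scheme known as tRNA punctuation. Most genes lie in the sense of the plus strand of the reference, and mt-Nd6 and a minority of tRNAs in that of the minus strand. Both proteins belong to the SR family of splicing factors and are found mainly in the nucleus, whereas mitochondrial transcripts have no introns. The lists hold no input RNA, so binding per molecule and the amount of each RNA cannot be told apart.

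Among mitochondrial peaks, the highest scores of both lists lay in the rRNAs; the best ranked 6 in the whole SRSF1 list and 4 in the whole SRSF2 list. The next sequences are the 5 overlapping SRSF1 and SRSF2 pairs whose lower score percentile among the mitochondrial peaks of its list was highest. Capitals mark the bases under both peaks, and 10 bases of flank are in lower case. The RNA sense is given with T for U, from the GENCODE transcripts of GRCm38, and positions are those of the mm9 plus strand. Both builds carry the same mitochondrial reference record, as background; no mm9 sequence was at hand to check this.

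mt-Rnr2, 3′ end, chrM:2636-2688: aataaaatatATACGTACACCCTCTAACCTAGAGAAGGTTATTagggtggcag

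mt-Rnr2, 5′ part, chrM:1139-1249: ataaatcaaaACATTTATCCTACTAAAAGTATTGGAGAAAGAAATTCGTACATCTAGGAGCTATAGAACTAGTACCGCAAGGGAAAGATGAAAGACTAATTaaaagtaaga

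mt-Rnr1, chrM:891-928: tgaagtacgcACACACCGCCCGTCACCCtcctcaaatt

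mt-Rnr1, chrM:814-862: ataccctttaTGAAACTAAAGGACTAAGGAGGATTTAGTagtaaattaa

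mt-Rnr1, chrM:734-775: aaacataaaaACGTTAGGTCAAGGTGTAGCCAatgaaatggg

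The deposited score is the authors' own value for each peak, a whole number of undocumented meaning, and it was used to rank peaks within a list. At the 3′ end of mt-Rnr2 both lists had a peak with the same ends, bases 2646 to 2678, with scores of 271 (SRSF1) and 289 (SRSF2). It reached 3 nt past the annotated end of the rRNA into mt-Tl1, the leucine tRNA that follows directly. The 5′ site of mt-Rnr2 was the widest of the 5, 100 nt in the SRSF1 list (1149 to 1248, score 250) and 91 nt in the SRSF2 list (1149 to 1239, score 316). The SRSF2 score there was the highest of the mitochondrial peaks of that list, and 271 was the highest of the SRSF1 list.

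In mt-Rnr1 the third pair covered ACACACCGCCCGTCACCC, part of a stretch near the 3′ end of small-subunit rRNAs that is known to be conserved and to lie at the decoding site. Its scores were 228 (SRSF1, 901 to 921) and 266 (SRSF2, 892 to 918). The fourth pair scored 252 (SRSF1, 814 to 852) and 232 (SRSF2, 824 to 852), and the fifth, bases 744 to 765 in both lists, 196 and 230. The SRSF1 list also had a peak of score 219 at 414 to 438, ranked 5 in that list's mitochondrial peaks, that met no SRSF2 peak. In the SRSF2 list the third highest was a peak of score 267 at 2396 to 2460 of mt-Rnr2, which overlapped an SRSF1 peak of score 182 at 2394 to 2455.

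The rRNA of the small subunit, mt-Rnr1 (955 nt, bases 70 to 1024, plus strand), had 7 SRSF1 and 10 SRSF2 peaks. SRSF1 scores ran from 156 to 252 with a median of 196, and SRSF2 scores from 179 to 266 with a median of 194.5. SRSF1 peaks covered 16.1% of its bases and SRSF2 peaks 19.7%, and 11.6% were under both. Of the 7 SRSF1 peaks 6 met an SRSF2 peak, and 6 of 10 in the other direction. The 4 SRSF2 peaks that met none (645 to 659, 685 to 702, 782 to 796 and 799 to 811) scored 183 to 190 and lay 28 to 85 nt from the nearest SRSF1 midpoint. All 5 single-list sites of mt-Rnr1 lay between sites shared by the lists.

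The large-subunit rRNA, mt-Rnr2 (1582 nt, bases 1094 to 2675, plus strand), had 16 SRSF1 and 15 SRSF2 peaks. Scores were lower at the median than in mt-Rnr1, with 142 (101 to 271) in the SRSF1 list and 170 (138 to 316) in the SRSF2 list. Peaks covered 28.3% and 30.2% of its bases, and 25% were under both. Of its SRSF1 peaks 14 (87.5%) met an SRSF2 peak, and of its SRSF2 peaks 13 (86.7%) met an SRSF1 peak. Those that did not were the SRSF1 peaks at 1138 to 1148 (score 191) and 1508 to 1519 (113), and the SRSF2 peaks at 2012 to 2025 (143) and 2250 to 2266 (140). The first of these abutted the wide 5′ site given above, and the authors' list gives it to another host unit (the transcript or region by which they numbered peaks). The shared start at base 1149 thus lay where units adjoin, and the part of unit edges in it was not tested. The shared ends at bases 2678 and 852 were the last listed bases of their units in both lists. The ends of the units themselves are not given, so the part of unit edges there was not tested either.

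**Figure D1:**
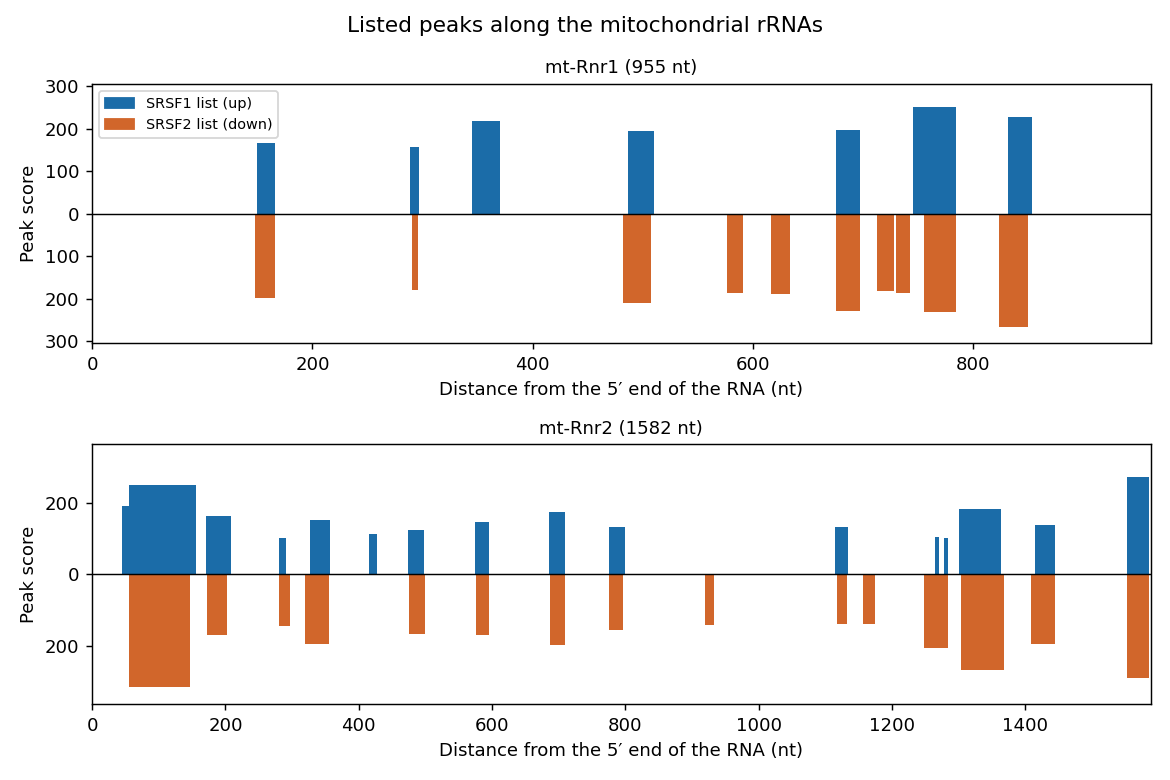
Scores of listed peaks (vertical axis, SRSF1 upward and SRSF2 downward) against distance from the 5′ end of mt-Rnr1 and mt-Rnr2 in nt; each bar is 1 peak and its width is the peak's width. Most bars face a bar of the other list, 20 of 23 for SRSF1 and 19 of 25 for SRSF2.

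The rRNAs stood high in both lists. Of the 100 peaks with the highest scores in the SRSF1 list, 23 were mitochondrial and all 23 lay in the rRNAs, 7 in mt-Rnr1 and 16 in mt-Rnr2. The SRSF2 list had 26 mitochondrial peaks among its top 100, of which 10 lay in mt-Rnr1, 15 in mt-Rnr2 and 1, of score 111, in mt-Ta. Mitochondrial peaks were 0.124% of the SRSF1 list and 0.140% of the SRSF2 list. The median score of mitochondrial peaks was 50 (SRSF1) and 49 (SRSF2), against 8 over all peaks of either list, and their median width was 22 and 23 nt, against 19 nt.

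Scores fell off beyond the rRNAs. Each host unit had its own lowest score. It was 101 (SRSF1) and 138 (SRSF2) in the unit of mt-Rnr2, and 47 and 45 in that of mt-Nd2. In those of mt-Co1 and mt-Nd4 it was 22 and 25, and 16 and 25. It did not fall steadily along the map, with 46 and 40 in a unit inside mt-Nd5. The unit of mt-Cytb and other mt-Nd5 peaks had 32 and 36. The unit of all minus-strand peaks had 9 and 8, yet it also held those of mt-Ta, 90 and 111. A site of a given score could thus be listed in one RNA while none of that score was listed in another. Peak numbers were missing within the mitochondrial units, 8 of 71 for SRSF1 and 10 of 89 for SRSF2, so some numbered peaks were not listed.

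Among the mRNAs, 6 of 13 had a listed peak: mt-Nd2, mt-Nd4, mt-Nd5 and mt-Nd6, which encode subunits of respiratory complex I, mt-Co1 of complex IV and mt-Cytb of complex III. One overlapping pair is shown for each plus-strand mRNA among the 10 RNAs named at the start, again the pair with the highest lower percentile. Capitals mark the bases under both peaks.

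mt-Nd2, chrM:4109-4153: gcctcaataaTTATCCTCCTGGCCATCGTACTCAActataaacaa

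mt-Co1, chrM:5357-5416: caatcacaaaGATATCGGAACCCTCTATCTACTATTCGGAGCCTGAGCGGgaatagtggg

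mt-Nd4, chrM:11106-11165: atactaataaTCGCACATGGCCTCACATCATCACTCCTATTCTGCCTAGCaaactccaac

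mt-Cytb, chrM:14718-14799: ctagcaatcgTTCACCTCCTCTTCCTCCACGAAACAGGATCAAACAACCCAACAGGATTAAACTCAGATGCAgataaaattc

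The mRNA of cytochrome b, mt-Cytb (bases 14145 to 15288, plus strand), had 9 SRSF1 and 10 SRSF2 peaks, of which 6 in each list met the other. The pair shown was its highest-scoring SRSF1 peak, with 98 (SRSF1, 14728 to 14792) and 60 (SRSF2, 14725 to 14789). The SRSF2 list had a higher score at 14484 to 14521, 75, where the SRSF1 peak scored 37. SRSF1 peaks covered 18.8% of mt-Cytb and SRSF2 peaks 24.2%, with 11.9% under both. The order of sites by score thus differed between the lists in this RNA.

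The mRNA of cytochrome c oxidase subunit I, mt-Co1 (bases 5328 to 6872, plus strand), had 8 peaks in each list. All 8 SRSF1 peaks and 7 of the 8 SRSF2 peaks met the other list, the exception being an SRSF2 peak at 5549 to 5570 (score 39). Scores ran from 22 to 54 (SRSF1) and from 25 to 62 (SRSF2). The pair shown lay near the 5′ end, beginning at base 38 of the RNA in the SRSF1 list.

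mt-Nd4 (bases 10167 to 11544, plus strand) had 7 peaks in each list, all in its 3′ part, with scores of 16 to 31 (SRSF1) and 25 to 49 (SRSF2). A 73 nt SRSF1 peak at 11116 to 11188 faced a pair of SRSF2 peaks, 11114 to 11155 and 11157 to 11188. mt-Nd2 (bases 3914 to 4951, plus strand) had 2 SRSF1 and 5 SRSF2 peaks. Both SRSF1 peaks met an SRSF2 peak, and the SRSF2 peaks at 3925 to 3941, 4087 to 4107 and 4668 to 4679 met none. mt-Nd5 (bases 11742 to 13565, plus strand), which is not among the 10 RNAs, had 4 and 6 peaks, of which 2 in each list met the other.

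The numbers of peaks in the lists were near each other for most RNAs. Of 8 RNAs with at least 5 peaks, 2 (mt-Nd2 with 2 and 5, and mt-Nd6 with 2 and 5) had at least 2 times as many in the SRSF2 list and 0 had at least 2 times as many in the SRSF1 list. Among genic host units elsewhere in the genome with at least 5 peaks, 18.9% had at least 2 times as many SRSF2 peaks and 12.9% at least 2 times as many SRSF1 peaks. Those are host units, whereas the 8 are RNAs of the map. The peaks of mt-Nd6 lay in no genic unit, and mt-Cytb shared a unit with part of mt-Nd5. The SRSF1 share of plus-strand mitochondrial peaks was 47.1% (57 of 121, exact Clopper-Pearson 95% interval 38 to 56.4), against 47.5% of all peaks. The share was 41.2% in mt-Rnr1 (18.4 to 67.1), 51.6% in mt-Rnr2 (33.1 to 69.8), 28.6% in mt-Nd2 (3.67 to 71.0), 50% in mt-Co1 (24.7 to 75.3) and in mt-Nd4 (23.0 to 77.0), and 47.4% in mt-Cytb (24.4 to 71.1). Each of these intervals, which cover counting error only, included 47.5%.

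**Figure D2:**
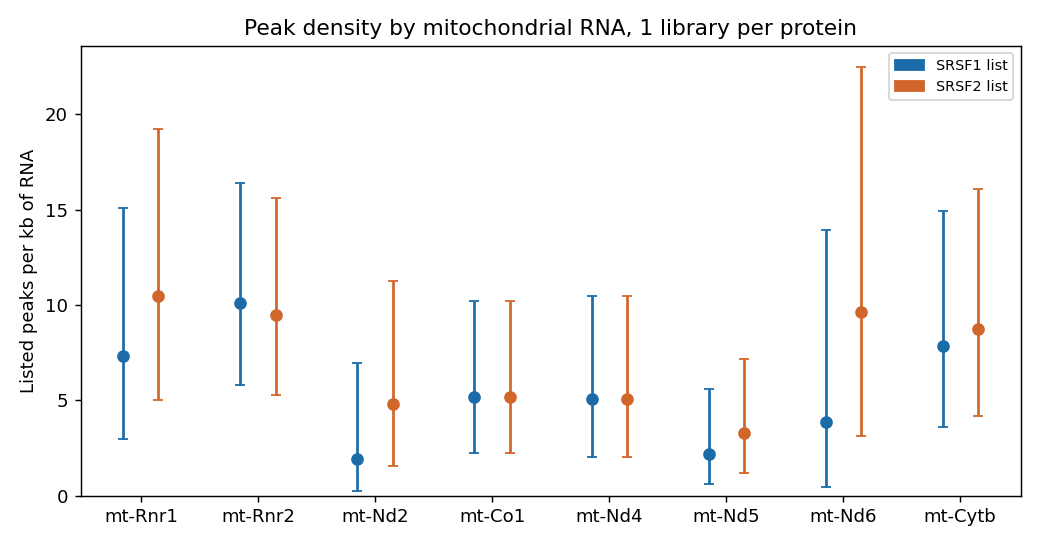
Listed peaks per kb of RNA in each list for the 8 rRNAs and mRNAs with a peak; points are values of 1 library and vertical lines are exact Poisson 95% intervals for counting error. The intervals of the lists overlap in each RNA shown. Lowest listed scores differ between host units, so densities of different RNAs are not on equal terms.

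By peaks per kb of RNA, the SRSF1 order was mt-Rnr2 (10.1), mt-Cytb (7.87), mt-Rnr1 (7.33), mt-Co1 (5.18), mt-Nd4 (5.08), mt-Nd6 (3.85), mt-Nd5 (2.19) and mt-Nd2 (1.93). The SRSF2 order was mt-Rnr1 (10.5), mt-Nd6 (9.63), mt-Rnr2 (9.48), mt-Cytb (8.74), mt-Co1 (5.18), mt-Nd4 (5.08), mt-Nd2 (4.82) and mt-Nd5 (3.29). No common score was required across RNAs, and copied sequence was not taken out. The SRSF2 peaks of mt-Nd6 scored 11 to 13, in a host unit whose lowest SRSF2 score was 8. The SRSF2 units of mt-Rnr2, mt-Co1 and mt-Cytb listed none below 138, 25 and 36. Densities of different RNAs are thus not on equal terms. Neighbours in either order had overlapping exact Poisson 95% intervals. In the SRSF1 list the interval of mt-Rnr2 (5.78 to 16.4) lay above that of mt-Nd5 (0.598 to 5.61), while in the SRSF2 list the intervals of mt-Rnr2 (5.31 to 15.6) and mt-Nd5 (1.21 to 7.16) overlapped.

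Peaks of the lists coincided closely on mitochondrial RNA. Of the mitochondrial SRSF1 peaks, 51 of 63 (81.0%, 69.1 to 89.8) met an SRSF2 peak on the same strand by at least 1 nt, against 38.7% of the whole SRSF1 list. Of the SRSF2 peaks, 50 of 79 (63.3%, 51.7 to 73.9) met an SRSF1 peak, against 35.2% of the whole list. The 52 overlapping pairs had a median distance of 2 nt between midpoints, 43 lay within 5 nt, and 3 had the same start and end. SRSF2 peaks covered 10.4% of the plus strand of the map and SRSF1 peaks 9.14%.

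The score moved with this overlap. Among SRSF1 peaks with a score of at least 50, the mitochondrial median, 29 of 32 mitochondrial peaks (90.6%, 75.0 to 98.0) and 136 of 157 other peaks (86.6%, 80.3 to 91.5) met the other list. Among SRSF2 peaks with a score of at least 49, the values were 31 of 40 (77.5%, 61.5 to 89.2) and 175 of 190 (92.1%, 87.3 to 95.5). At these scores the mitochondrial share was thus lower than that of other peaks in the SRSF2 list (77.5% against 92.1%). In the SRSF1 list it was slightly higher (90.6% against 86.6%). The intervals overlapped in both lists, which does not show that the shares are equal.

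A run of 4635 nt of the plus strand, bases 6393 to 11027, had no listed peak of either protein. It holds the whole of mt-Co2 (bases 7013 to 7696), mt-Atp6 (7927 to 8607) and mt-Co3 (8607 to 9390), which encode subunits of complexes IV and V, and of mt-Atp8, mt-Nd3 and mt-Nd4l, with the 3′ end of mt-Co1 and the 5′ part of mt-Nd4. Most of this sequence has exact copies in the nuclear genome. The GENCODE annotation lists 7 pseudogenes on chromosome 1 (Gm29216, Gm28661, Gm10925, Gm28437, Gm28438, Gm10222 and Gm28439) that follow one another on the minus strand with 0 other annotated genes of that strand between them, in the order of mt-Co1, mt-Co2, mt-Atp6, mt-Co3, mt-Nd3, mt-Nd4l and mt-Nd4. Every 30 nt stretch of mt-Co2 (100%) occurred exactly in an annotated nuclear transcript, as did 99.5% of those of mt-Atp6, 99.9% of mt-Co3, 98.1% of mt-Nd3 and 98.9% of mt-Nd4l. For mt-Atp8, 8.0% of stretches had an annotated copy, and it had 0 listed peaks. Its copied bases, 162 to 204 of the RNA, were those that overlap mt-Atp6. Only annotated transcripts were searched, so sequence between the pseudogenes was not examined for the rest of mt-Atp8.

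The longest copied runs of mt-Co1 and mt-Nd4 ended near the edges of the run without peaks. In mt-Co1 the last peak ended at base 1065 of the RNA in both lists, and the identical run with Gm29216 began at base 1067 and went on to the last base, 1545. In mt-Nd4 the identical run with Gm28439 covered bases 1 to 876. The first SRSF1 peak of mt-Nd4 began at base 911, and the first SRSF2 peak, at bases 862 to 886, straddled the end of the copied run. Copied 30 nt stretches of mt-Co1 also lay outside this run and took 90.4% of its bases, many of them matching another pseudogene, Gm13340. Of the 1397 copied bases of mt-Co1, 120 (8.59%) lay under a peak of either list, against 108 of the 148 other bases (73.0%), and 1 of 8 peaks in each list lay wholly in copied sequence. The share under a peak was lower for copied than for other bases in each of the 6 plus-strand rRNAs and mRNAs with both copied bases and peaks, as in mt-Nd4 (1.71% against 42.6%) and mt-Cytb (11.7% against 39.5%). The treatment of reads that match both genomes is undocumented, and the part of the nuclear copies in the missing peaks was not tested. The 0 values of mt-Co2, mt-Atp6 and mt-Co3 are uncertain as a measure of binding.

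**Figure D3:**
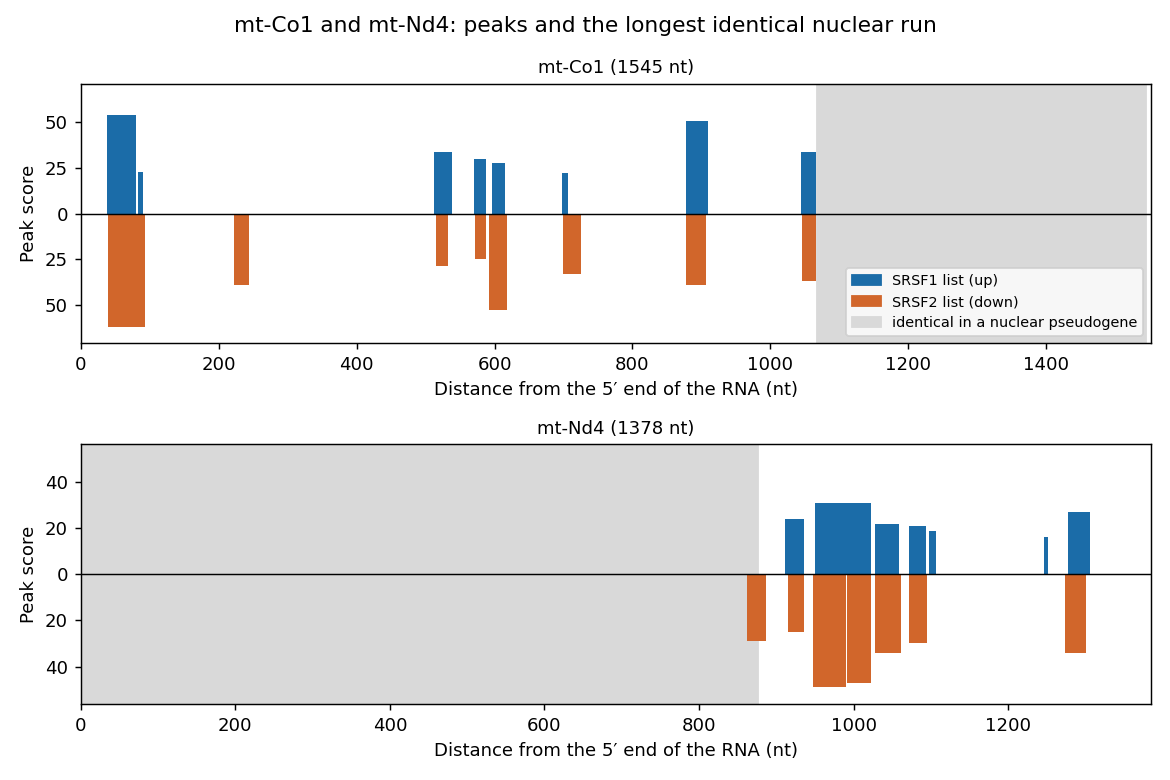
Scores of listed peaks (SRSF1 upward, SRSF2 downward) against distance from the 5′ end of mt-Co1 and mt-Nd4 in nt; grey marks the longest run identical to a nuclear pseudogene. In mt-Co1 peaks stop at base 1065 where the grey run begins at base 1067, and in mt-Nd4 they lie to the right of the grey run, apart from 1 SRSF2 peak that crosses its end at base 876.

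Counts of peaks in copied sequence differed with the length of stretch asked for. Over the plus-strand rRNAs and mRNAs, 4526 nt lay in stretches of at least 100 nt with an exact annotated nuclear copy, and there 0 SRSF1 and 1 SRSF2 peaks had their midpoint, against 53 and 60 in the other 8895 nt. With stretches of 30 nt, 6494 nt counted as copied and held 8 SRSF1 and 6 SRSF2 peaks, or 1.23 and 0.924 per kb, against 6.50 and 7.94 per kb elsewhere. Outside copied stretches of 100 nt the density of mt-Co1 was 9.98 peaks per kb in both lists, and that of mt-Nd4 13.9 (SRSF1) and 12.0 (SRSF2). The rRNAs, with 0 nt in such stretches, had 7.33 to 10.5. Other mRNAs were not all at that level. By the same measure mt-Cytb had 7.87 (SRSF1) and 8.74 (SRSF2), mt-Nd2 2.20 and 5.50, mt-Nd5 2.19 and 3.29, and mt-Nd1 0 in both lists.

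mt-Nd1 (bases 2751 to 3707, plus strand), which encodes a complex I subunit, also had 0 listed peaks, within a run of 1070 nt without peaks (2679 to 3748) between the 3′ site of mt-Rnr2 and a peak in mt-Ti. Here 0% of the 30 nt stretches had an exact copy among annotated nuclear transcripts. The rRNAs had few such stretches, 0% of mt-Rnr1 and 2.83% of mt-Rnr2. The other mRNAs with peaks lay between, with 14.1% for mt-Nd2, 17.5% for mt-Nd5 and 7.35% for mt-Cytb.

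Few peaks lay at the ends of the plus-strand rRNAs and mRNAs. Midpoints within 50 nt of a 5′ or 3′ end were found for 5 of 57 SRSF1 peaks (8.77%, 2.91 to 19.3) and 3 of 64 SRSF2 peaks (4.69%, 0.977 to 13.1), while these windows take 15.8% of the plus strand of the map. Those of SRSF1 were at the 3′ end and the 5′ end of mt-Rnr2, the 5′ end of mt-Nd2 (a peak inside mt-Tm) and, for 2 peaks (1 of them inside mt-Tt), the 3′ end of mt-Cytb. Those of SRSF2 were at the 3′ end of mt-Rnr2 and, for 2 peaks, the 5′ end of mt-Nd2. The SRSF1 interval included 15.8%, and the SRSF2 interval lay below it. The windows also cover the run without peaks described above, which was not taken out, so these values do not show that peaks avoid ends.

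tRNAs had 7 peaks in each list, in 7 of the 22 tRNAs, and the other 15 had none. On the plus strand these were mt-Tm, the initiator and elongator methionine tRNA, with 1 peak in each list (scores 59 and 80), mt-Ti with 1 SRSF1 peak (31) and mt-Tt with 1 peak in each list that did not meet (9 and 10). On the minus strand 4 of 8 tRNAs had peaks of both lists. They are printed whole in their own sense, with capitals for the bases under both peaks, because the peaks lay towards the 3′ end in 3 of them.

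mt-Ta, minus strand, chrM:5018-5086: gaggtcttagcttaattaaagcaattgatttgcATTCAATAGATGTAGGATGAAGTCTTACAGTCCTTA

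mt-Tp, minus strand, chrM:15356-15422: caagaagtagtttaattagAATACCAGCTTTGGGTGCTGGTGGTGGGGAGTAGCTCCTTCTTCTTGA

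mt-Tc, minus strand, chrM:5192-5257: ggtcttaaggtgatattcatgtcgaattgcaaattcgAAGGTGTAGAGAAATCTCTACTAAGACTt

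mt-Tq, minus strand, chrM:3772-3842: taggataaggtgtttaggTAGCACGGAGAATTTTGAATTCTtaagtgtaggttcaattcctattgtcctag

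mt-Ta, the alanine tRNA, had the highest minus-strand scores in both lists, 90 (SRSF1, 5015 to 5053) and 111 (SRSF2, 5015 to 5056). Both peaks ran 3 nt past the annotated 3′ end, the same distance as at mt-Rnr2. mt-Tp, the proline tRNA, had a peak with the same ends in both lists (15355 to 15403, scores 59 and 47) that ran 1 nt past its 3′ end. In mt-Tc, the cysteine tRNA, the SRSF1 peak (24) stopped inside the tRNA and the SRSF2 peak (42) ran 2 nt past its 3′ end. mt-Tq, the glutamine tRNA, differed in that the shared site lay in the middle (scores 10 and 19), with a further SRSF2 peak (8) nearer the 3′ end. Of all peaks, 3 of SRSF1 and 5 of SRSF2 reached past an annotated end, each at a 3′ end, and 1 in each list touched a neighbouring RNA of its strand.

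**Figure D4:**
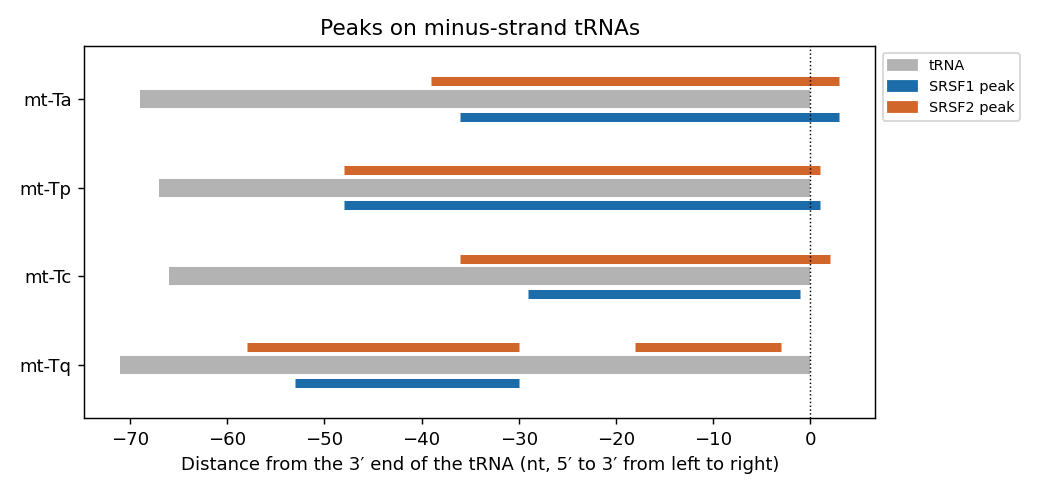
Peaks (SRSF2 above and SRSF1 below each tRNA) on the 4 minus-strand tRNAs with peaks (grey), by distance in nt from the annotated 3′ end. Peaks of mt-Ta, mt-Tp and mt-Tc cover the 3′ part in both lists and some pass the dotted line by 1 to 3 nt.

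Beyond the tRNAs the minus strand held low-scoring peaks, mostly of the SRSF2 list. All its peaks shared a host unit with a lowest score of 9 (SRSF1) and 8 (SRSF2). Most plus-strand units listed no score so low, so the strands cannot be compared at these scores. The minus strand had 6 SRSF1 and 15 SRSF2 peaks in all, an SRSF1 share of 28.6% (11.3 to 52.2). The interval of this share included the 47.5% of all peaks. mt-Nd6, the mRNA of a complex I subunit on this strand (bases 13552 to 14070), had 2 SRSF1 peaks (scores 9 and 11) and 5 SRSF2 peaks (11 to 13), and both SRSF1 peaks met an SRSF2 peak. A further 5 SRSF2 peaks, with scores of 8 to 14, lay opposite to a plus-strand RNA, and the SRSF1 list had 0 there (interval of the share 0 to 52.2). On the plus strand 1 SRSF1 peak (15380 to 15390, score 9) and 1 SRSF2 peak (15379 to 15391, score 10) lay opposite to mt-Tp and met each other. The control region, which is not in the map, had none on either strand, since the last base under a peak was 15403.

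Bases under peaks were richer in G than the other bases of the same RNA. This held in 7 of 7 plus-strand RNAs with peaks for each list, with a median difference of 8.91 percentage points for SRSF1 (3.22 to 19.5) and 7.65 for SRSF2 (4.61 to 15.1). In mt-Co1, G made up 24.3% of bases under SRSF1 peaks, 24.9% under SRSF2 peaks and 14.7% under neither. In mt-Nd2 the values were 16.9%, 14% and 7.16%, and in mt-Rnr1 18.8%, 20.2% and 15.6%. A and U were lower under peaks in 7 of 7 RNAs for each list, and C was higher in 5 of 7 for SRSF1 and 7 of 7 for SRSF2. With bases in copied 30 nt stretches left out of the bases under neither, G stayed higher in 7 of 7 RNAs for each list, though in mt-Co1 only 40 bases were then left to compare with. The lists share many of these bases, so they are not independent of each other.

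**Figure D5:**
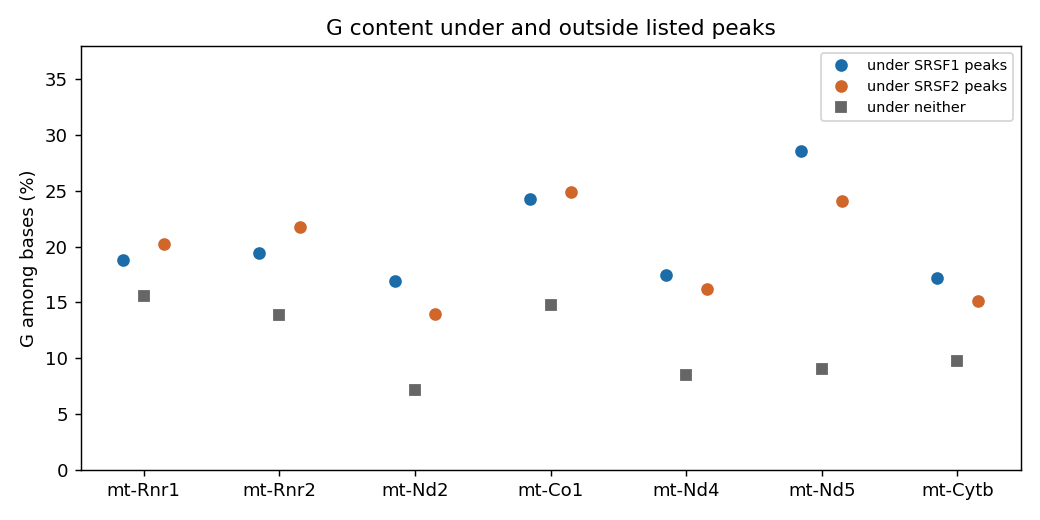
G among bases (%) under SRSF1 peaks, under SRSF2 peaks and under neither in the 7 plus-strand rRNAs and mRNAs with peaks, with no error since each point is a fixed stretch of sequence. Both peak values lie above the grey square in each RNA.

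Short motifs known from work on these proteins were then counted in 30 nt windows centred on each peak, on the RNA strand alone. Only plus-strand rRNAs and mRNAs with peaks were used here, so mt-Nd6 was left out. GGA, a core of purine-rich SRSF1 sites, was in 15 of 30 SRSF1 windows of mRNAs (50%, 31.3 to 68.7) and 14 of 36 SRSF2 windows (38.9%, 23.1 to 56.5), against 26.9% of all 30 nt windows of the mRNAs with peaks. In the rRNAs it was in 43.5% of SRSF1 windows (23.2 to 65.5) and 36.0% of SRSF2 windows (18 to 57.5), against 28.7%. GGNG and CCNG, both forms of SRSF2 site, were each in 25% (12.1 to 42.2) of SRSF2 windows of mRNAs and in 23.3% (9.93 to 42.3) of SRSF1 windows, against 13.1% and 18.8% of all windows. GAAGAA, a repeat of purine-rich SRSF1 sites, was in 0 of 30 SRSF1 and 0 of 36 SRSF2 windows of mRNAs and in 0% of all of them. In the rRNAs it was in 0 of 23 SRSF1 windows and 1 of 25 SRSF2 windows. GGNG and CCNG in rRNA windows were in 26.1% and 17.4% (SRSF1) and 28% and 24% (SRSF2), against 17.3% of all windows for each motif. GGA and GGNG can overlap. Of these motif shares, the one whose interval lay above the share of all windows was GGA in SRSF1 windows of mRNAs. No correction was made for the number of shares, and overlapping windows are not independent. The set of all windows includes copied stretches and was not matched for G content, which was higher under peaks. A match is a description and not a shown binding site.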

How the data were processed

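For each of 2 CLIP-seq libraries (SRSF1 and SRSF2, MEFs) the authors deposited 1 list of peaks with a whole-number score per peak. The build is mm9 per the submitters' processing notes. Read depth, aligner, peak caller, calling threshold, the treatment of reads with several matches and what the deposited score means were all not given in the sources used here. Depth is therefore unknown and the number of peaks does not stand for it.

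Positions were made 1-based. Peaks were assigned by midpoint and strand to the 37 mitochondrial genes of GENCODE M21 (GRCm38), whose starts and ends for mt-Rnr1, mt-Rnr2 and mt-Nd1 equal those of the assignment rule. Overlap meant at least 1 nt on the same strand, and gave the same counts as bedtools 2.31.1. Stretches of 30 nt of each RNA were looked up, on both strands, in all annotated nuclear transcripts; unannotated copies and mm9 itself were not searched. Shares carry exact Clopper-Pearson 95% intervals and densities exact Poisson ones (scipy 1.17.1), for counting error only. With 1 library per protein no test between proteins was run. Functions were tested on simulated data. The text names all 10 RNAs of the list, every other mitochondrial RNA with a peak, the 5 highest peaks of each list and the 5 pairs with the highest lower percentile of score. The RNAs, lists and comparisons were chosen with earlier results of these data known, and the search for nuclear copies, base composition and motifs after seeing the peaks. Alternatives used the upper 50% of peaks by score, merged peaks, other assignment and overlap rules, and other windows.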

Additional observations from a re-analysis of the deposited data

How the results depend on the processing

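The SRSF1 share of plus-strand peaks stayed within its interval, with 43.5% in the upper 50% of peaks by score and 46.7% with peaks merged. Of 31 alternatives for single RNAs, 30 stayed within the RNA's interval. In the upper 50% mt-Nd4 had no SRSF1 peak left, a share of 0%, and mt-Nd6 had no peak of either list. This count says little of stability, because the intervals are wide, such as 3.67 to 71.0 in mt-Nd2. Other assignment rules left every share unchanged, and the upper 50% kept all rRNA peaks. The share of SRSF2 peaks that met the other list was 77.2% for midpoints within 50 nt, a wider criterion than 1 shared nt. It was 62.5% to 63.3% otherwise, and that of SRSF1 was 81.0% to 88.9%. For the upper 50% both lists were cut, giving 62.5% (SRSF2) and 81.25% (SRSF1). Against the whole other list, peaks at those scores gave 77.5% (SRSF2) and 90.6% (SRSF1). Peaks near an end were 1.75% (SRSF1) with windows of 25 nt, and 19.3% (SRSF1) and 15.6% (SRSF2) with windows of 100 nt, which cover 8.62% and 27.7% of the strand. In the upper 50% there were 3 SRSF1 and 2 SRSF2 peaks in tRNAs, and 2 SRSF1 and 1 SRSF2 peaks on the minus strand, because most of those have low scores. The share of stretches with an exact nuclear copy, 38.9% at 30 nt, was 43.7% at 20 nt, 34.2% at 50 nt and 29.4% at 100 nt, lengths chosen after seeing the data.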
